A study of Mus musculus with 12 samples.

Results

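Motile cilium genes are described here in whole mouse lung. The 37 genes were taken by name from the array annotation, and older names (Dnahc5, Gm1060 and the like) were matched through accessions. A probe was found for 36 of them and none was found for Cdhr4. Dnaic2 was well above background on 0 of 12 arrays and Cdhr3 on 2, so both stayed out of the tests, and 34 of the 37 genes were tested among 19829 genes in all. RNA of 12 mice was hybridised to single-colour Agilent 4x44K arrays, 1 mouse per array. The 3 groups were wild type (WT) mice in room air, WT mice exposed to cigarette smoke, and Rora mutant mice exposed to cigarette smoke, with n = 4 each. All mice were C57Bl/6, labelled as male with an age of 12 weeks, and smoke ran on 5 days a week for 4 months. Rora encodes a nuclear receptor; the allele of the mutants is not named in the labels, and no mutant mice in room air were analysed here, so genotype was compared under smoke alone.

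Motile cilia are the beating hairs of multiciliated cells, which line the conducting airways and move mucus out of the lung. Each cilium is built on an axoneme, a ring of doublet microtubules around a central pair. Dynein arms on the doublets generate the sliding force, radial spokes and the central pair regulate it, and nexin links turn sliding into bending. The transcription factors Foxj1 and Rfx3 switch on this set of genes, and intraflagellar transport carries the parts into the growing cilium. In whole-lung RNA, fewer ciliated cells and less RNA per ciliated cell cannot be told apart.

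RFX factors bind half-sites that are read here as GTTGCC or, with 1 more base, GTTGCCA, on both strands, in the 300 bases from 250 before to 50 after each RefSeq transcript start (build GRCm38.p6). A promoter was found for 33 of the 37 genes; Foxj1, Rsph1, Rsph4a and Tppp3 had none in the table. The 6-base half-site was present for 20 of these 33 genes (60.6%), against 14.1% of all 27025 genes of the table, and in 12 of the 20 it lay within the 50 bases before the start. The 7-base half-site, which contains the 6-base one, was present for 9 of 33 genes (27.3%) against 5.02% of all genes. Sequence windows are printed for 7 genes that hold the longer half-site before the start and whose RNA is described below. Each is 70 bases of the gene's own strand, with GTTGCCA or its reverse complement TGGCAAC in capitals.
Tekt1: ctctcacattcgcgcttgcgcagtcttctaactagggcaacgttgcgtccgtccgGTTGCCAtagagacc
Lrriq1: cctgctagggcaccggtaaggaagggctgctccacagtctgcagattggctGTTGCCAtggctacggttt
Drc1: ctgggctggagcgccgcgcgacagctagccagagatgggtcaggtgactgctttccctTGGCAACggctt
Hydin: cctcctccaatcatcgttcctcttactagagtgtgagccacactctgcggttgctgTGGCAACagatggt
Lrrc23: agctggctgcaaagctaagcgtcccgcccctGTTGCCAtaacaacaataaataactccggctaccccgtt
Pifo: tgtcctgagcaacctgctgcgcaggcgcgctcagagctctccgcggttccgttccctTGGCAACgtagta
Mlf1: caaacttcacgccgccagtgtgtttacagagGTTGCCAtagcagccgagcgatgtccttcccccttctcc

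These windows lay upstream of the annotated start in GRCm38.p6, at chr11:72361883-72361952 (- strand) for Tekt1, chr10:103236323-103236392 (- strand) for Lrriq1 and chr5:30281323-30281392 (+ strand) for Drc1. The window of Hydin was chr8:110266907-110266976 (+ strand), that of Lrrc23 chr6:124779728-124779797 (- strand), that of Pifo chr3:106001498-106001567 (- strand) and that of Mlf1 chr3:67373961-67374030 (+ strand). In the first 4 windows and in Pifo the half-site began 12 to 19 bases before the start. The window of Mlf1 also holds TGTTTAC, 1 of the forkhead motifs searched, in lower case. Over the 33 genes TGTTTAC was present for 2 (6.06%) and TGTTTGT for 2 (6.06%), against 4.05% and 7.60% of all genes. A relaxed pair of facing RFX half-sites (the X-box) was present for 1 gene, Pifo, and for 0.529% of all genes; 2 stricter forms of the X-box were present for 0 of 33. A match is a description of the letters and not of binding.

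**Figure D1:**
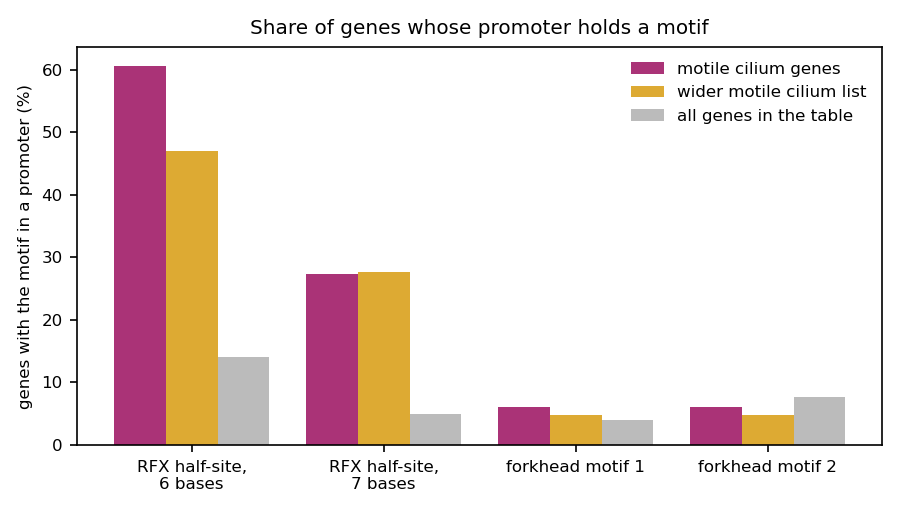
Share of genes (%) whose RefSeq promoter window holds each of 4 motifs, for the motile cilium genes (33 with a window), a wider motile cilium list (83) and all 27025 genes. The RFX half-sites stand at 60.6% and 27.3% for the motile cilium genes against 14.1% and 5.02% for all genes, and the forkhead motifs at 6.06% each against 4.05% and 7.60%.

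Levels are log2 signal over the 75th percentile of the array, so a level belongs to its probe and is not set against that of another gene. Differences are in log2 units with their standard error (SE), from limma on all 12 arrays, and a gene passed where its p, adjusted by Benjamini and Hochberg's method across the 19829 genes, was under 0.05. Between 70.1% and 74.8% of an array's spots were well above background. In the mutants Rora itself fell by 78.2% against WT smoke (a difference of -2.20 ± 0.06, adjusted p = 1.17e-09). Xist, expressed from an inactive X chromosome, had a mean level of 4.04 ± 0.07 (SD, n = 4) on the room air arrays, -5.39 ± 2.08 on the WT smoke arrays and -4.61 ± 1.26 on the mutant arrays. The Y-linked Ddx3y was above background on every smoke array of both genotypes and on 0 room air arrays, although all mice are labelled as male. For every comparison with room air, exposure and this sex-linked difference cannot be told apart.

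The 3 groups stood in one order for most of the genes. The mean level was highest in WT room air, intermediate in WT smoke and lowest in the mutants for 31 of 34 genes, an order that 24.0% of all genes had; Rfx3, Spag6 and Ift172 were the exceptions. Averaged over the 34 genes, each as its deviation from its own mean over 12 arrays, the room air arrays lay at 0.19, 0.16, 0.24 and 0.08 (replicates 1 to 4, as in every list of values below). The WT smoke arrays lay at 0.24, -0.12, 0.01 and -0.04, and the mutant arrays at -0.19, -0.20, -0.20 and -0.18. All 4 mutant arrays were thus below all other arrays, and WT smoke replicate 1 was the highest array of the series while the other WT smoke arrays were below every room air array. WT smoke replicate 1 was the highest of the WT smoke arrays for 30 of the 34 genes, against 30.6% of all genes, and replicate 2 was the lowest for 20.

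**Figure D2:**
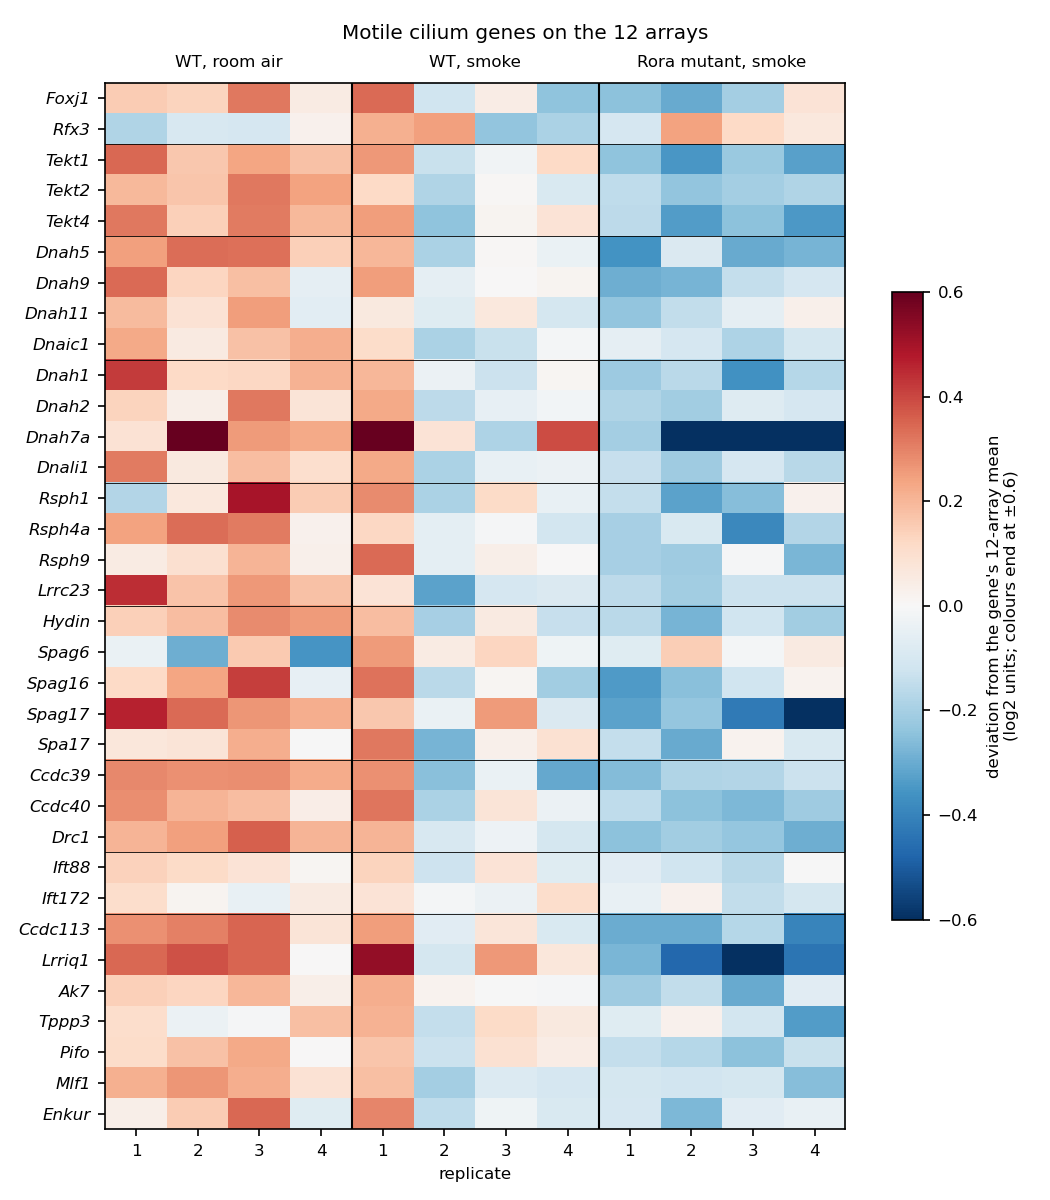
Deviation of each of the 34 measured motile cilium genes (rows, grouped by role) from its own mean over 12 arrays, in log2 units, on every array (columns). The room air columns and WT smoke replicate 1 are mostly above the mean and the 4 mutant columns mostly below; Rfx3 and Spag6 do not follow this order.

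In WT mice, 2 of the 34 genes fell with smoke and none rose, while 2.55% of all genes fell and 2.3% rose. They were Tekt2, a filament protein of the doublet wall whose signal fell by 16.8%, and Lrrc23, a radial spoke protein whose signal fell by 22.6%. The difference was below 0 for 31 of 34 genes (53.2% of all genes), with a median of -0.15 against -0.01 over all genes. The arrays of Tekt2, Lrrc23 and Drc1 did not overlap between the groups, 3 of 34 genes against 6.91% of all genes. Without WT smoke replicate 1, 8 genes fell (Tekt2, Dnah5, Dnaic1, Lrrc23, Hydin, Ccdc39, Drc1 and Mlf1; 2.16% of all genes) and the median was -0.25. The count was 1 without room air replicate 2 or any single mutant array, and 0 without room air replicate 1, 3 or 4 or WT smoke replicate 2, 3 or 4. Over all 19829 genes, 264 to 502 fell with smoke when 1 array was left out. The median within slides 1 to 3 was 0.06, -0.22 and -0.26, where slide 1 held WT smoke replicate 1. With slide as a block the median was -0.12 and 0 of the 34 genes passed in limma, so the calls with smoke depend on this setting. Over all 19829 genes 335 fell with the block. At an unadjusted p under 0.05, 10 of the 34 were lower with the block. Without it 13 were lower, against 10.4% of all genes. The fall of Tekt2 passed in 5 of 22 alternative settings and that of Lrrc23 in 11.

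Under smoke, 5 of the 34 genes were lower in Rora mutants than in WT and none was higher. Over all genes 3.56% were lower and 2.49% higher. The 5 genes are named next. They were Tekt1 (doublet wall), Dnah7a (inner dynein arm), Spag17 (central pair), Ccdc113 (a coiled-coil protein of the axoneme) and Lrriq1. Dnah7a was well above background on 0 of 4 mutant arrays and entered the test through the WT arrays; among the 33 genes well above background on all 12 arrays, 4 were lower, with a median of -0.17. Over all 34, the difference was below 0 for 33 of 34 genes (49.4% of all genes), with a median of -0.18 against 0.00. Every mutant array was below every WT smoke array for 10 of 34 genes, Dnah7a included, against 6.85% of all genes. The median within slides 1 to 3 was -0.41, -0.12 and -0.17. With slide as a block it was -0.22, and Tekt1, Spag17 and Lrriq1 passed, among 499 lower genes of 19829. The count was 1 without WT smoke replicate 1 (Lrriq1, with a median of -0.12), against 1.67% of all genes. It was 1 without WT smoke replicate 3, among 390 lower genes in all. It was 0 without mutant replicate 4, among 297 lower genes in all, where the median was -0.22. In that setting 15 of the 34 were lower at an unadjusted p under 0.05 in limma. With all 12 arrays 16 were lower at that p, against 11.6% of all genes. The count was 2 without mutant replicate 2, among 732 lower genes in all. It was 3 without mutant replicate 1 (495 lower genes in all), WT smoke replicate 4 (538) or room air replicate 3 (619).

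Against WT room air, 22 of the 34 genes were lower in mutant smoke and none was higher. Over all genes 10% were lower and 6.67% higher. Among the 33 genes well above background on all 12 arrays, which leaves out Dnah7a, 21 were lower, with a median of -0.34. Over all 34, the median difference was -0.35, where the signal fell by 21.4%, against -0.01 over all genes, and the difference was below 0 for 32 of 34 genes (51.5% of all genes). The medians over the 34 genes within slides were -0.34, -0.39 and -0.40, and all 22 passed with slide as a block. Every mutant array was below every room air array for 24 of 34 genes, Dnah7a included, against 11.7% of all genes. These 24 include the 22. Each of the 22 was therefore lower on each of the 3 slides by necessity, which adds no further support. This comparison adds exposure, and the sex-linked difference that goes with it, to genotype. It shares its groups with the other comparisons. Without WT smoke replicate 1, Foxj1 and Rsph9 passed here as well, 24 in all, against 9.91% of all genes. With normexp background correction in place of the scanner's own, 0 genes of the 34 passed in limma in any of the 3 comparisons, and over all genes 182 passed here in place of 3313. At an unadjusted p under 0.05 in limma, normexp gave 2 lower genes of the 34 with smoke, 10 with genotype and 18 against room air. The share of all genes at that p under normexp is not given here, so these counts have no background. With the scanner's correction and 75th percentile scaling, 13, 16 and 27 of the 34 were lower at that p. The shares of all genes were 10.4%, 11.6% and 17.2%. With those settings 0 of the 34 genes were higher at that p in any comparison, against 7.9%, 9.53% and 13.6% of all genes.

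**Figure D3:**
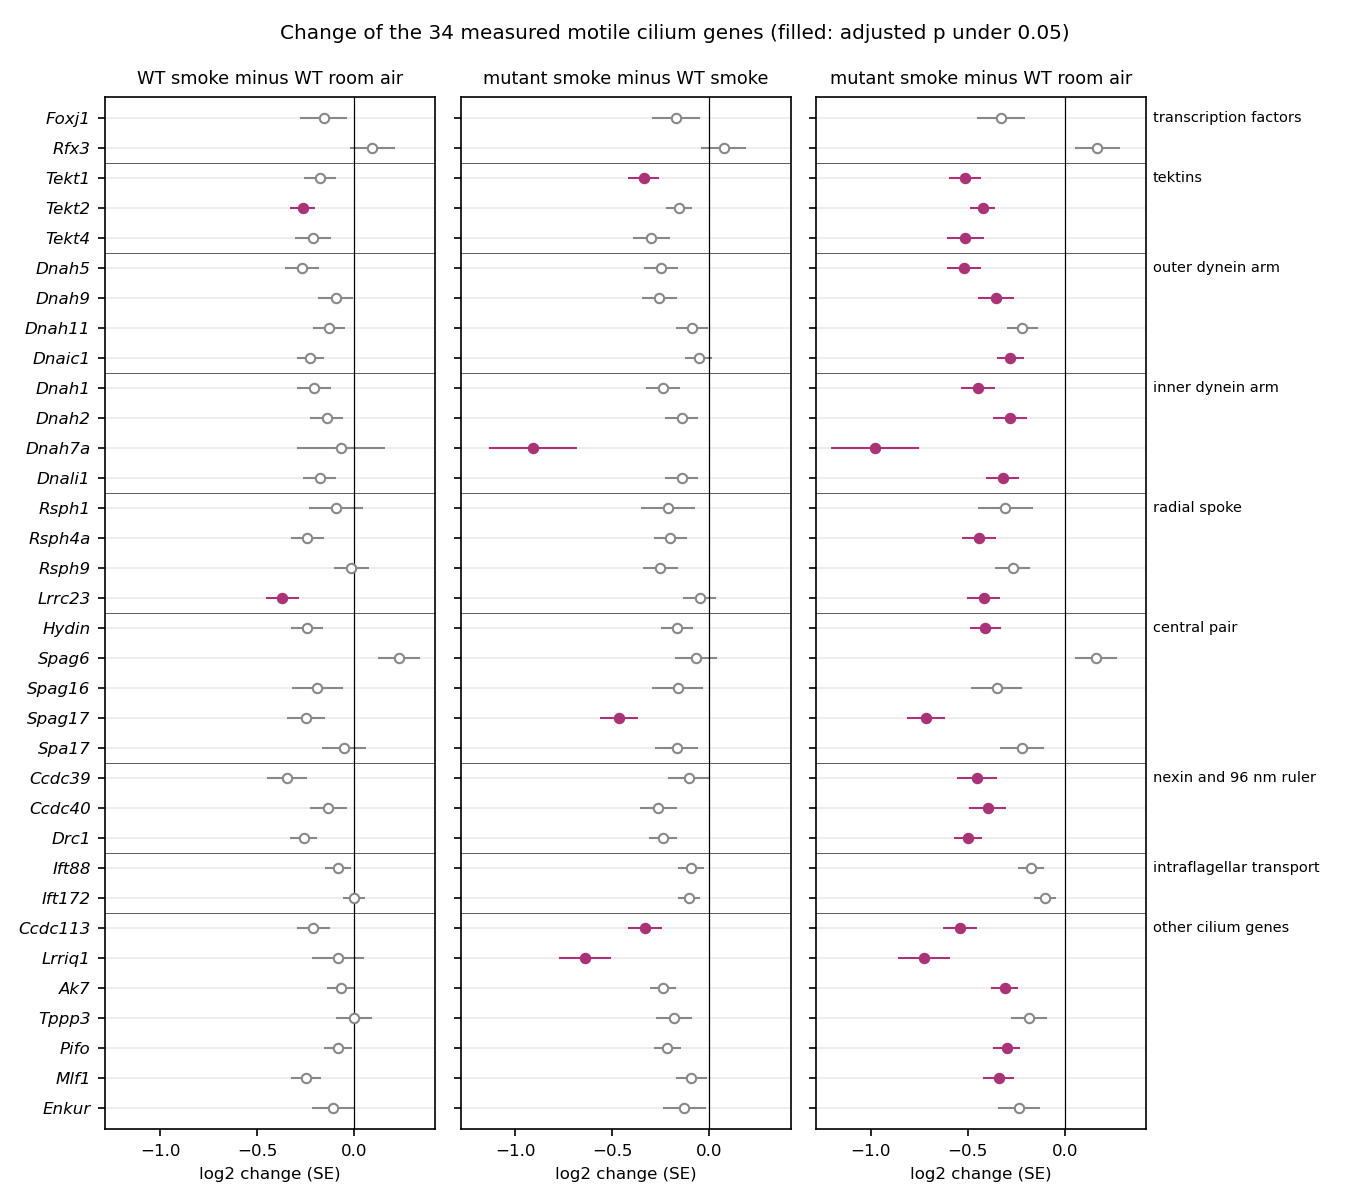
Difference in log2 units (points) with its SE (bars) for the 34 measured genes by role, in the 3 comparisons; filled points passed at an adjusted p under 0.05. Filled points number 2 for smoke in WT, 5 for genotype under smoke and 22 for mutant smoke against room air, and all of them lie below 0.

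Scaling to the median of each array instead of its 75th percentile left all passing members on the lower side. It moved the share of higher genes among all calls from 47.5% to 62.8% with smoke, from 41.1% to 56.5% with genotype and from 39.9% to 67.9% against room air. The number of members that fell was then 0, 3 and 18, among 351, 529 and 1403 lower genes in all. At an unadjusted p under 0.05 in limma, 1 member was higher with smoke, 0 with genotype and 2 against room air.

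Of the transcription factors, neither passed in any comparison. Foxj1, the forkhead regulator of motile ciliogenesis, had 1 probe (chr11:116146990-116147049, build mm8, as all probe positions). Foxj1 lay at 2.05, 2.03, 2.21 and 1.95 in WT room air, at 2.24, 1.78, 1.95 and 1.66 in WT smoke and at 1.65, 1.60, 1.70 and 1.98 in the mutants. The groups overlapped throughout: WT smoke replicate 1 was the highest array and mutant replicate 4 reached the room air range. The difference of mutant smoke from room air was -0.33 ± 0.12 (adjusted p = 0.0909), with -0.16 for smoke and -0.17 for genotype. Rfx3 lay at -4.23, -4.14, -4.15 and -4.02 in WT room air, at -3.83, -3.80, -4.28 and -4.24 in WT smoke and at -4.15, -3.80, -3.92 and -3.98 in the mutants. The arrays of Rfx3 overlapped between all groups on this probe, with a difference of 0.17 ± 0.12 (adjusted p = 0.365) from room air. Its probes disagreed: a second probe fell by 0.51 ± 0.12 (adjusted p = 0.0133, over all probes) in the same comparison, and another differed by -0.39 (adjusted p = 0.282).

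The 3 tektins, which form filaments inside the doublet wall, were all lower in mutant smoke than in room air. Tekt1 lay at 3.01, 2.82, 2.90 and 2.84 in WT room air, at 2.92, 2.53, 2.64 and 2.78 in WT smoke and at 2.42, 2.31, 2.44 and 2.33 in the mutants. Every mutant array was below every WT array, and the room air and WT smoke arrays overlapped. Tekt1 (chr11:72160917-72160975) fell by 0.34 ± 0.08 (adjusted p = 0.0329) with genotype under smoke and fell by 0.52 ± 0.08 (adjusted p = 0.00166) against room air. A second Tekt1 probe fell by 0.31 and by 0.48 in these comparisons (adjusted p = 0.0348 and 0.00172 over all probes). Tekt2 lay at 1.50, 1.47, 1.62 and 1.55 in WT room air, at 1.43, 1.13, 1.31 and 1.22 in WT smoke and at 1.15, 1.07, 1.11 and 1.13 in the mutants. All WT smoke arrays of Tekt2 (chr4:125824490-125824549) were below all room air arrays, and WT smoke replicate 2 lay within the mutant range. Tekt2 fell by 0.27 ± 0.07 (adjusted p = 0.0415) with smoke and fell by 0.42 ± 0.07 (adjusted p = 0.00147) in mutant smoke against room air; with genotype it differed by -0.16 ± 0.07 (adjusted p = 0.19). Tekt4 lay at 2.04, 1.87, 2.04 and 1.92 in WT room air, at 1.98, 1.49, 1.75 and 1.81 in WT smoke and at 1.57, 1.39, 1.48 and 1.38 in the mutants. Tekt4 fell by 0.51 ± 0.09 (adjusted p = 0.00386) against room air, with no overlap, but its mutant arrays reached WT smoke replicate 2, and its difference with genotype was -0.30 ± 0.09 (adjusted p = 0.0868).

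Of the 4 tested genes of the outer dynein arm, which drives beat frequency, 3 were lower in mutant smoke than in room air. Dnah5 lay at 0.83, 0.92, 0.92 and 0.73 in WT room air, at 0.79, 0.40, 0.60 and 0.55 in WT smoke and at 0.23, 0.50, 0.29 and 0.31 in the mutants. Dnah5, a heavy chain, fell by 0.52 ± 0.09 (adjusted p = 0.00233) against room air, and the mutant arrays overlapped WT smoke through WT smoke replicate 2 alone. Its other kept probes fell by 0.60 and 1.03. Dnah9 lay at 1.23, 1.02, 1.07 and 0.84 in WT room air, at 1.14, 0.84, 0.89 and 0.91 in WT smoke and at 0.59, 0.61, 0.75 and 0.79 in the mutants. Dnah9, a heavy chain of the distal cilium, fell by 0.35 ± 0.09 (adjusted p = 0.0225); every mutant array was also below every WT smoke array, but the difference with genotype was -0.26 ± 0.09 (adjusted p = 0.126). Dnaic1 lay at -0.25, -0.42, -0.30 and -0.26 in WT room air, at -0.37, -0.66, -0.61 and -0.49 in WT smoke and at -0.53, -0.58, -0.66 and -0.58 in the mutants. Dnaic1, an intermediate chain, fell by 0.28 ± 0.07 (adjusted p = 0.019), and its mutant and WT smoke arrays overlapped. Dnah11, a heavy chain of the proximal cilium, differed by -0.22 ± 0.08 (adjusted p = 0.0903) and its mutant replicates 3 and 4 lay within the room air range.

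Of the inner dynein arms, which shape the bend, Dnah1, Dnah2 and Dnali1 were lower in mutant smoke than in room air. Dnah7a was not well above background in the mutants. Dnah1 lay at -3.31, -3.61, -3.60 and -3.52 in WT room air, at -3.53, -3.76, -3.86 and -3.72 in WT smoke and at -3.95, -3.89, -4.09 and -3.90 in the mutants. Dnah1 fell by 0.45 ± 0.09 (adjusted p = 0.00538), and its mutant arrays were below every array of both WT groups; a second probe differed by 0.09 (adjusted p = 0.887). Dnah2 lay at 1.42, 1.32, 1.60 and 1.36 in WT room air, at 1.51, 1.13, 1.23 and 1.27 in WT smoke and at 1.10, 1.08, 1.21 and 1.18 in the mutants. Dnah2 fell by 0.28 ± 0.09 (adjusted p = 0.0438), with all mutant arrays below all room air arrays and overlap with WT smoke, but its second probe differed by 0.20 (adjusted p = 0.335), and the call of the main probe passed in 8 of 22 alternative settings. Dnali1 lay at 1.40, 1.14, 1.27 and 1.18 in WT room air, at 1.31, 0.89, 1.04 and 1.05 in WT smoke and at 0.94, 0.87, 0.98 and 0.91 in the mutants. Dnali1, a light intermediate chain, fell by 0.32 ± 0.09 (adjusted p = 0.0252), and mutant replicates 1, 3 and 4 were above WT smoke replicate 2.

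Dnah7a, a heavy chain, was near background. It was well above background on 4 room air arrays, on 3 WT smoke arrays and on 0 mutant arrays, so its level in mutants is uncertain. Dnah7a lay at -6.16, -5.41, -5.99 and -6.01 in WT room air, at -5.41, -6.16, -6.43 and -5.85 in WT smoke and at -6.45, -6.94, -7.11 and -6.99 in the mutants. No mutant array reached a WT array. The mutant level was set, array by array, to the higher of the probe's own signal and the lowest signal that cleared background. This left the mutant mean at its measured -6.87. In limma WT smoke was then 1.88-fold (adjusted p = 0.0389) and room air 1.97-fold (adjusted p = 0.0136) above mutant smoke. Neither fold is a secure lower bound. Both p-values rest on mutant signals that were not well above background. The mouse genome holds close copies of this gene, Dnah7b and Dnah7c, and which of them the probe reads is uncertain. Under normexp correction the sign turned, to 0.54 with genotype and 0.22 against room air.

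Among the radial spoke genes, Rsph4a and Lrrc23 were lower in mutant smoke than in room air, and Rsph1 and Rsph9 did not pass. Rsph4a lay at -1.29, -1.19, -1.22 and -1.50 in WT room air, at -1.40, -1.58, -1.54 and -1.64 in WT smoke and at -1.73, -1.62, -1.91 and -1.70 in the mutants. Rsph4a, a spoke head protein, fell by 0.44 ± 0.09 (adjusted p = 0.00534), and no mutant array reached the room air range. Lrrc23 lay at 3.04, 2.76, 2.86 and 2.77 in WT room air, at 2.68, 2.27, 2.49 and 2.51 in WT smoke and at 2.44, 2.39, 2.47 and 2.46 in the mutants. For Lrrc23 (chr6:124735599-124735658) all WT smoke arrays were below all room air arrays, and the mutant arrays lay inside the WT smoke range. Lrrc23 fell by 0.37 ± 0.09 (adjusted p = 0.0321) with smoke and fell by 0.42 ± 0.09 (adjusted p = 0.00698) in mutant smoke against room air, and with genotype under smoke it differed by -0.05 ± 0.09 (adjusted p = 0.803). Rsph9 lay at 2.46, 2.51, 2.62 and 2.44 in WT room air, at 2.75, 2.35, 2.45 and 2.41 in WT smoke and at 2.21, 2.20, 2.41 and 2.14 in the mutants. Rsph9, another spoke head protein, did not overlap between mutant smoke and room air, yet the difference was -0.27 ± 0.09 (adjusted p = 0.0647). Rsph1 ranged from -0.40 to 0.27 among the room air mice and differed by -0.31 ± 0.14 (adjusted p = 0.165).

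Among the central pair genes, Spag17 and Hydin were lower in mutant smoke than in room air, and Spag6, Spag16 and Spa17 did not pass. Spag17 lay at -0.15, -0.28, -0.35 and -0.40 in WT room air, at -0.46, -0.66, -0.36 and -0.70 in WT smoke and at -0.94, -0.85, -1.04 and -1.21 in the mutants. Every mutant array of Spag17 (chr3:100183958-100184017) was below every WT array. Spag17, a projection protein, fell by 0.47 ± 0.10 (adjusted p = 0.0198) with genotype and fell by 0.72 ± 0.10 (adjusted p = 0.000734) against room air, a signal that fell by 39.1%. Its second probe fell by 0.73 against room air, and with genotype differed by -0.40 (adjusted p = 0.0635). Hydin lay at 0.10, 0.14, 0.24 and 0.21 in WT room air, at 0.14, -0.24, 0.01 and -0.18 in WT smoke and at -0.20, -0.32, -0.16 and -0.25 in the mutants. Hydin, a giant protein of the central pair projection, fell by 0.41 ± 0.08 (adjusted p = 0.00621) against room air; WT smoke replicates 2 and 4 lay within the mutant range. Spag16 differed from room air by -0.35 ± 0.13 (adjusted p = 0.0926) and Spa17 by -0.22 ± 0.11 (adjusted p = 0.21). Spag6 lay at -5.09, -5.35, -4.90 and -5.41 in WT room air, at -4.80, -5.00, -4.93 and -5.08 in WT smoke and at -5.13, -4.91, -5.06 and -5.00 in the mutants. Spag6 differed with smoke by 0.23 ± 0.11 (adjusted p = 0.283), upward, and its groups overlapped. This probe lies on chromosome 2, under another name in the annotation; the probe annotated as Spag6 lies on chromosome 16 and was above background on 0 of 12 arrays.

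The 3 genes of the nexin complex and the axonemal ruler, which set the repeat along each doublet, were all lower in mutant smoke than in room air. Drc1 lay at 3.18, 3.22, 3.33 and 3.18 in WT room air, at 3.18, 2.88, 2.95 and 2.87 in WT smoke and at 2.73, 2.77, 2.74 and 2.68 in the mutants. For Drc1, a nexin subunit, the arrays of the 3 groups did not overlap at any step, although WT smoke replicate 1 was just under the lowest room air array. Drc1 fell by 0.50 ± 0.07 (adjusted p = 0.000843) against room air, while the single steps missed the threshold, at -0.26 ± 0.07 (adjusted p = 0.0602) with smoke and -0.24 ± 0.07 (adjusted p = 0.0687) with genotype. Ccdc39 lay at -1.38, -1.39, -1.39 and -1.44 in WT room air, at -1.39, -1.91, -1.70 and -1.97 in WT smoke and at -1.93, -1.84, -1.84 and -1.79 in the mutants. The 4 room air arrays of Ccdc39, a ruler subunit, spanned -1.44 to -1.38, and WT smoke replicate 1 lay within them. Ccdc39 fell by 0.45 ± 0.10 (adjusted p = 0.0132) against room air. Ccdc40 lay at 0.39, 0.32, 0.30 and 0.15 in WT room air, at 0.44, -0.07, 0.19 and 0.08 in WT smoke and at -0.04, -0.13, -0.16 and -0.10 in the mutants. Ccdc40, its partner, fell by 0.40 ± 0.10 (adjusted p = 0.0159), and WT smoke replicate 2 reached into the mutant range.

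The intraflagellar transport genes, which also serve primary cilia, did not pass. Ift88 lay at -0.04, -0.06, -0.09 and -0.16 in WT room air, at -0.04, -0.30, -0.09 and -0.25 in WT smoke and at -0.24, -0.29, -0.34 and -0.18 in the mutants. Ift88 had its 4 mutant arrays below its 4 room air arrays, with a difference of -0.18 ± 0.07 (adjusted p = 0.0939). Ift172 lay at 3.59, 3.50, 3.44 and 3.54 in WT room air, at 3.57, 3.47, 3.45 and 3.59 in WT smoke and at 3.44, 3.51, 3.34 and 3.38 in the mutants. The arrays of Ift172 overlapped between all groups. Ift172 differed by -0.10 ± 0.06 (adjusted p = 0.256) from room air and by 0.00 with smoke, and its 3 further probes differed from room air by -0.02, -0.03 and -0.25.

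Of the 7 other tested genes, 5 were lower in mutant smoke than in room air. Lrriq1 lay at -3.84, -3.80, -3.83 and -4.18 in WT room air, at -3.65, -4.29, -3.92 and -4.11 in WT smoke and at -4.46, -4.65, -4.82 and -4.62 in the mutants. Every mutant array of Lrriq1 (chr10:102651077-102651136), which encodes a protein with leucine-rich repeats and IQ motifs, was below every WT array. Lrriq1 fell by 0.64 ± 0.13 (adjusted p = 0.0195) with genotype and fell by 0.72 ± 0.13 (adjusted p = 0.00415) against room air, a signal that fell by 39.5%. Its second probe fell by 0.41 against room air and differed by -0.38 with genotype (adjusted p = 0.0522). Under normexp correction the sign turned, to 0.30 and 0.06. Ccdc113 lay at 1.71, 1.73, 1.78 and 1.51 in WT room air, at 1.68, 1.36, 1.50 and 1.34 in WT smoke and at 1.13, 1.13, 1.26 and 1.03 in the mutants. Every mutant array of Ccdc113 was below every WT array. Ccdc113 fell by 0.33 ± 0.09 (adjusted p = 0.0462) with genotype and fell by 0.54 ± 0.09 (adjusted p = 0.00188) against room air, and the first of these passed in 8 of 22 alternative settings.

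The remaining genes showed smaller differences. Ak7 lay at 2.02, 2.00, 2.07 and 1.91 in WT room air, at 2.09, 1.90, 1.87 and 1.87 in WT smoke and at 1.66, 1.73, 1.57 and 1.81 in the mutants. Ak7, an adenylate kinase of cilia, fell by 0.31 ± 0.07 (adjusted p = 0.0108) against room air, with every mutant array below every WT array, and differed by -0.24 ± 0.07 (adjusted p = 0.0637) with genotype. Pifo lay at -0.47, -0.41, -0.35 and -0.58 in WT room air, at -0.41, -0.71, -0.49 and -0.54 in WT smoke and at -0.72, -0.75, -0.83 and -0.71 in the mutants. Pifo, a protein of the ciliary base, fell by 0.30 ± 0.07 (adjusted p = 0.0145) against room air, also with every mutant array below every WT array. Mlf1 lay at 1.24, 1.30, 1.25 and 1.12 in WT room air, at 1.21, 0.83, 0.95 and 0.93 in WT smoke and at 0.93, 0.91, 0.93 and 0.78 in the mutants. Mlf1 fell by 0.34 ± 0.08 (adjusted p = 0.0136) against room air, and its WT smoke and mutant arrays overlapped. Tppp3, a tubulin-binding protein, and Enkur, an adaptor protein of the axoneme, differed from room air by -0.18 ± 0.09 (adjusted p = 0.21) and -0.24 ± 0.11 (adjusted p = 0.17). Of the 15 further kept probes, which belong to 11 of the genes, 13 had a difference below 0 against room air.

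**Figure D4:**
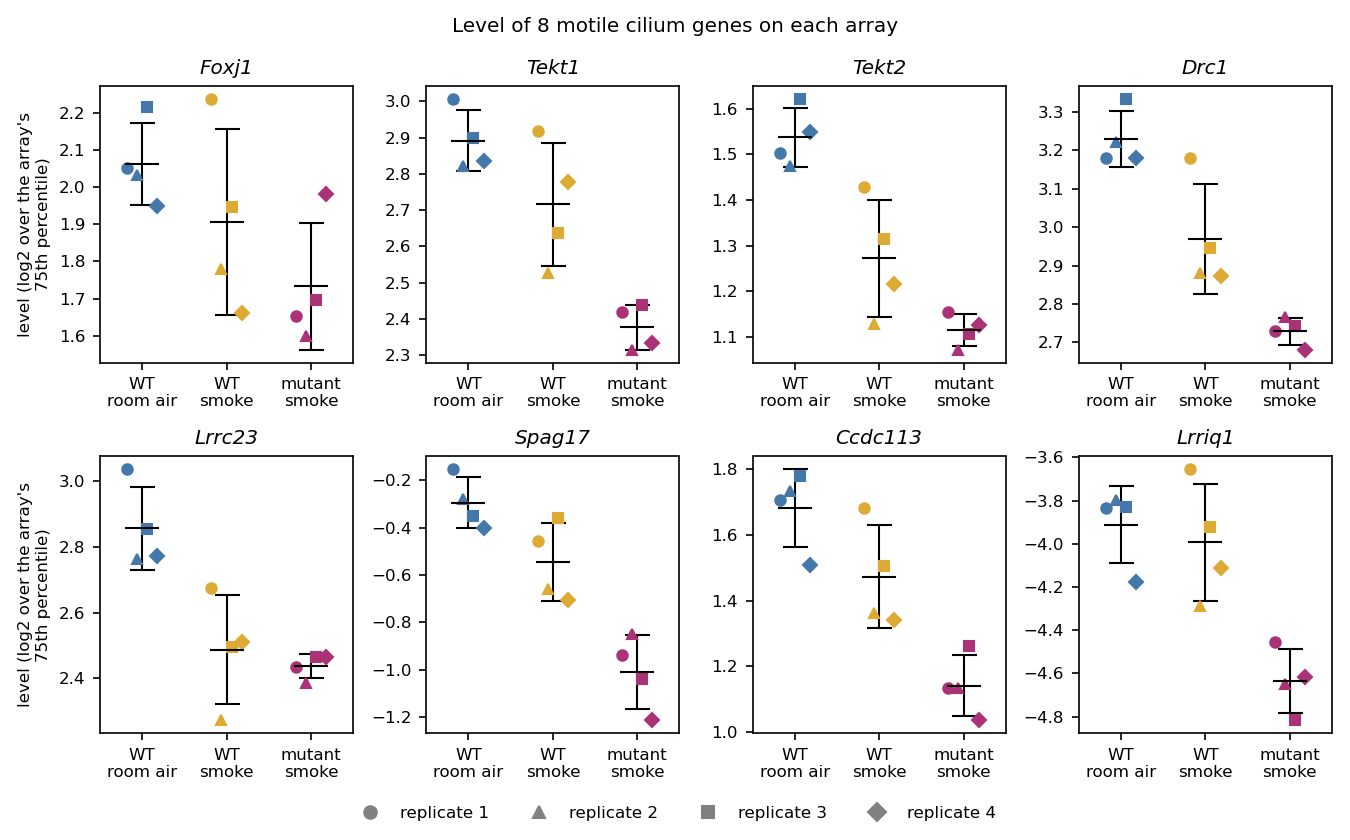
Level of 8 motile cilium genes on each array (log2 over the array's 75th percentile); symbols mark replicates, and bars the mean and SD of 4 arrays. Mutant arrays of Tekt1, Drc1, Spag17, Ccdc113 and Lrriq1 lie below all WT arrays, while those of Foxj1, Tekt2 and Lrrc23 overlap WT smoke.

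The genes differed in how closely they moved from mouse to mouse. With the group means taken off, the median Pearson r of 561 pairs of genes over 12 arrays was 0.52, with a range of -0.42 to 0.95; arrays share scaling and hybridisation, and these values are a description. Ccdc40 (r = 0.92), Drc1 (0.89) and Ccdc39 (0.87), all of the nexin and ruler group, were closest to the mean of the other genes. Rfx3 (0.02), Ift172 (0.11), Tppp3 (0.33) and Spag17 (0.34) were farthest from it. The mean of the 34 genes had an SD of 0.06 in room air, 0.15 in WT smoke and 0.01 in the mutants. Differences among the WT smoke mice, where replicate 1 was highest, therefore weigh most in these r values. The median SD within a group was 0.10 in room air, 0.16 in WT smoke and 0.09 in the mutants over the 34 genes, against 0.11, 0.11 and 0.12 over all genes.

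The 7-base half-site was read beside these changes. Of 8 tested genes with it, 7 were lower in mutant smoke than in room air, with a median difference of -0.41. Of 22 tested genes with a promoter that lacks it, 14 were lower, with a median of -0.34. For the 6-base half-site the counts were 11 of 17 and 10 of 13, with medians of -0.41 and -0.32. The difference between these groups of genes was not tested.

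A wider list of 102 motile cilium genes, without the 37, was measured the same way, and 93 were tested. With smoke 9 fell and 1 rose, with genotype 7 fell and 1 rose, and in mutant smoke against room air 37 fell and 1 rose. Those that fell were 9.68%, 7.53% and 39.8% of the 93, against 2.55%, 3.56% and 10% of all genes. The medians were -0.09, -0.15 and -0.23. Stk36, a kinase needed for the central pair, rose by 0.49 ± 0.06 (adjusted p = 0.00091) with smoke and rose by 0.46 ± 0.06 (adjusted p = 0.000567) against room air, opposite to the other genes that passed there. Mns1, a protein inside the doublets, fell by 0.41 ± 0.08 (adjusted p = 0.0197) with smoke and rose by 0.43 ± 0.08 (adjusted p = 0.0145) with genotype.

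The other genes of the wider list with the smallest p fell. With smoke these were Cfap161, Zmynd10 (dynein assembly), Myb (multiciliation), Saxo2, Iqcg and Dnah6, the least Saxo2, by 0.24 (adjusted p = 0.0403), and the most Myb, by 0.43 (adjusted p = 0.0221). With genotype they were Armc4, Cfap54, Efhb, Saxo2, Tmem212, Cfap52 and Ift74, of which Armc4, a dynein docking protein, fell by 0.83 ± 0.14 (adjusted p = 0.00852). Against room air they were Saxo2, Iqcg, Cfap161, Cfap52, Efhb, Myb and Deup1, of which Deup1 (multiciliation) fell by 0.83 ± 0.12 (adjusted p = 0.00113). Among 17 further intraflagellar transport genes 2 fell against room air, a share near the 10% of all genes, with a median of -0.13, and among 13 tested proteins of the doublet interior 8 fell, with a median of -0.35.

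Markers of club and goblet cells were read beside the cilium genes. The 8 club cell markers lay, as mean deviations, at 0.07, 0.17, 0.12 and 0.09 in room air, at 0.27, -0.15, 0.06 and 0.10 in WT smoke and at -0.14, -0.13, -0.16 and -0.30 in the mutants. WT smoke replicate 1 was the highest and replicate 2 the lowest WT array here too, as for the cilium genes. With smoke 0 of the 8 passed as lower in limma, and their median was -0.03. Aldh1a1 rose with smoke, by 0.37 ± 0.08 (adjusted p = 0.0223). With genotype 2 of the 8 fell (Aldh1a1 and Gabrp), with a median of -0.20 over the 8. In mutant smoke against room air 3 of the 8 fell (Scgb3a1, Lypd2 and Gabrp), where 10% of all genes fell. The median there was -0.20, and 7 of the 8 were below 0. Scgb1a1, the main secretory protein of these cells, differed with genotype by -0.08 ± 0.10 (adjusted p = 0.696). All 7 tested goblet cell markers fell with smoke (median -1.86) and 4 of 7 with genotype (median -0.79). In mutant smoke against room air all 7 fell (median -2.85). Their mean deviation ran from 1.26 to 2.32 in room air, from -0.80 to 0.15 in WT smoke and from -1.76 to -1.30 in the mutants.

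Markers of the large airway wall and of macrophages also differed between the groups. Of 5 tested cartilage genes 2 fell with smoke (Col2a1 and Chad; median -0.68), with a mean deviation of 0.19 to 0.78 in room air, -0.45 to -0.08 in WT smoke and -0.37 to 0.14 in the mutants. Of 6 alveolar macrophage markers 5 rose with genotype, where 2.49% of all genes rose, with a median of 0.65. In mutant smoke against room air all 6 rose, where 6.67% of all genes rose, with a median of 0.63. Their mean deviation ran from 0.22 to 0.57 in mutant smoke against -0.41 to -0.22 in room air and -0.29 to -0.07 in WT smoke. Of 7 basal cell markers 1 fell with smoke and none passed with genotype (0 at an unadjusted p under 0.05). Of 7 neuroendocrine markers none passed in either in limma, with 2 at an unadjusted p under 0.05 with smoke and 0 with genotype. Of 7 alveolar type 2 markers 3 fell with smoke (Sftpa1, Sftpd and Lamp3; median -0.09) and 0 passed with genotype in limma (3 at an unadjusted p under 0.05; median 0.09). The 7 alveolar type 1 markers had medians of 0.14 with smoke and 0.10 with genotype, where 0 passed in limma (4 and 2 at an unadjusted p under 0.05), and 2 rose in mutant smoke against room air (Ager and Pdpn). All 7 smooth muscle markers were below 0 with smoke (median -0.23) and above 0 with genotype (median 0.13), where 0 passed in limma (4 and 1 at an unadjusted p under 0.05). Of 7 endothelial markers 1, Kdr, fell with genotype (median 0.06), and 0 passed with smoke in limma (1 at an unadjusted p under 0.05). In mutant smoke against room air 1 cartilage gene (Chad), 1 basal (Ngfr), 1 alveolar type 2 (Lamp3) and 1 endothelial marker (Kdr) fell. The part of sampled airway or of other cells in the cilium gene differences was not tested.

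**Figure D5:**
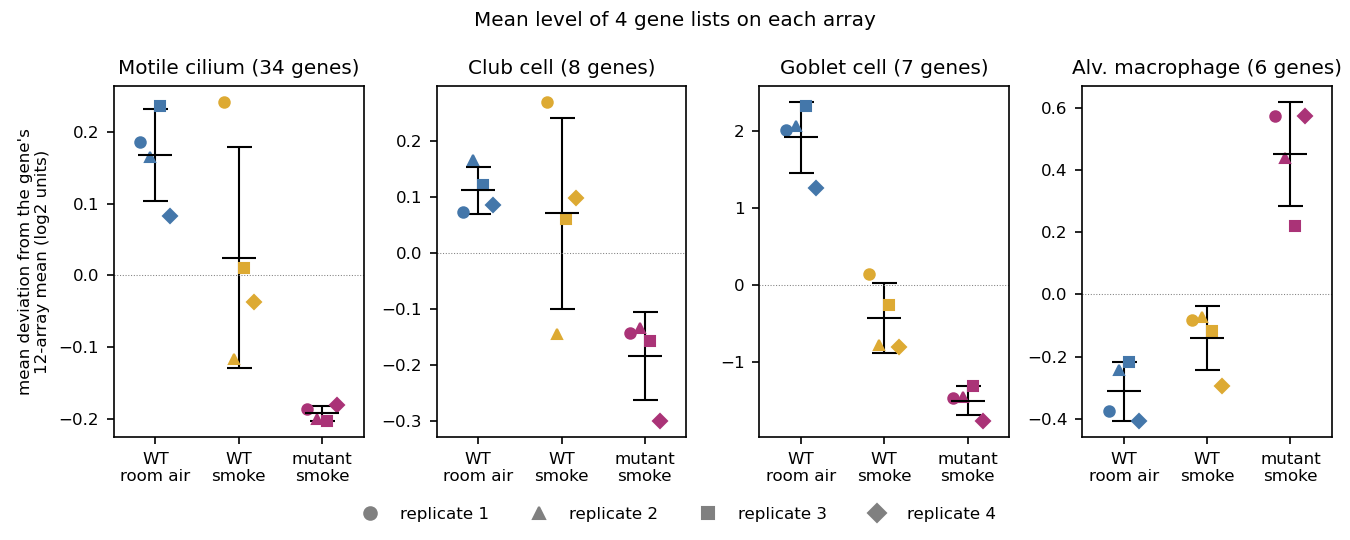
Mean deviation of 4 gene lists on each array, in log2 units from each gene's own 12-array mean; symbols mark replicates, and bars the mean and SD of 4 arrays; the vertical scales differ. The 34 motile cilium genes lie between -0.20 and -0.18 on the mutant arrays; the club cell markers share the high WT smoke replicate 1 and the low replicate 2, and the goblet markers are highest on the 4 room air arrays.

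Array position on the slide went with the groups for replicates 1 to 3, and replicate 4 of each group was hybridised at the same position on different slides. At that position the mean deviation of the 34 genes was 0.08 in room air, -0.04 in WT smoke and -0.18 in the mutants, the same order as the group means. These values come from 1 array per group, each on another slide, so group and slide cannot be told apart in them. The part of array position was not tested.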

How the data were processed

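Whole-lung RNA was hybridised to 12 single-colour arrays, 100 ng labelled with Cy3 per the labels' protocols. The arrays lay on 3 slides, each with all 3 groups. The authors' files come from Agilent Feature Extraction 9.5.3.1, per the submitters' processing notes. Per the file headers, the processed signal is an intensity after background subtraction within the array, with no scaling between arrays, and the spot mean and local background, used only for the normexp alternative, are uncorrected intensities. The values the authors deposited for the whole series are log2 intensity and served as an alternative; they track the processed signal of the same array (lowest correlation 0.9995) with a common median near 6.80, and their normalization is not given in the sources used here. The labels call the arrays biological replicates.

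Each array's processed signal was scaled to its own 75th percentile and put on the log2 scale. A probe had to clear background on 4 or more of the 12 arrays and to have values on at least 3 of each group (30197 of 41174 did), and the brightest such probe stood for a gene. Names were updated from RefSeq, for 24367 probes through the probe's accession, for 115 through another accession of the same spot and for 8630 through a symbol or synonym; 8062 kept the file's name. The 3 comparisons were fitted in 1 model over 12 arrays with limma 3.58.1 (lmFit, eBayes; R 4.3.3), two-sided, with Benjamini-Hochberg adjustment over all 19829 genes; single probes were adjusted over all kept probes. On simulated data with 19829 genes and independent noise the fit recovered 64% of changes of 0.5 and 89% of changes of 1 in log2 units, with 8 false calls. The median member differences (-0.15, -0.18 and -0.35) are smaller in size than either, so these rates do not give the recovery for the members. The precision is limited by 4 arrays a group. The data were held with data.table version 1.17.8 and pandas 2.3.3, and plots matplotlib 3.10.9.

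The members, lists and motifs were chosen with earlier results of these data known. A member has its 12 values printed if it passed or did not overlap in any comparison, or had 1 of the 4 smallest p in either direction with smoke or genotype. Wider-list genes were named among the 8 smallest p of a comparison that passed. Alternatives are given at the end.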

Additional observations from a re-analysis of the deposited data

Results flagged for a closer look

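In 3 of 102 groups of 4 arrays, 1 array of a motile cilium gene stood apart, its gap to the nearest array exceeding the share of the group's range that Dixon's test sets for 4 values; chance alone gives about 1 in 20 such groups. Lrriq1 in WT room air replicate 4 lay at -4.18, with the other arrays between -3.84 and -3.80. Ak7 in WT smoke replicate 1 lay at 2.09, with the others between 1.87 and 1.90. Mlf1 in mutant smoke replicate 4 lay at 0.78, with the others between 0.91 and 0.93.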

How the results depend on the processing

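No member rose in any setting, and the median member difference stayed below 0 in all 3 comparisons in every setting. Members that fell with smoke (2 in the main analysis) numbered 0 under normexp, under scaling to the array median, without the filter on dim probes, with slide as a block and with only the 2 groups compared. Members lower with genotype (5) numbered 0 under normexp, 3 under scaling to the array median, 2 without the filter on dim probes, 3 with slide as a block, 1 with only the 2 groups compared and 8 with an eBayes trend. Members lower in mutant smoke against room air (22) numbered 0 under normexp and 18 to 23 under the others. Leaving out 1 array gave 0 to 8 with smoke, 0 to 5 with genotype and 18 to 24 against room air; the median with smoke then ran from -0.25 to -0.11. Under normexp, which moved the median of all genes by up to 0.10, signs turned for Dnah7a (0.54) and Lrriq1 (0.30) with genotype and for Dnah1 (0.033), Dnah7a (0.22) and Lrriq1 (0.064) against room air, all without passing; 40 genes rose and 13 fell with smoke, and 14 and 16 with genotype. The cause was not tested. Same-numbered arrays of different groups correlated at -0.10 to 0.22 after group means were removed, and differently numbered arrays at -0.20 to 0.20. Replicates 1 to 3 also shared a slide by number, so these values cannot decide whether the numbers pair mice. With the replicate block 1 member fell with smoke, 6 with genotype and 22 against room air. Taking the median change of all genes off, added after the data were seen, left the medians at -0.14, -0.18 and -0.34. Signal near background limits Dnah7a, Dnaic2 and Cdhr3.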

Other observations

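Genes outside both cilium lists were ranked by Pearson r with the mean of the 34 motile cilium genes over 12 arrays, group means taken off, as a description with no test. The 10 highest were Clic6 (0.97), Sox2 (0.96), Gfra1 (0.94), Ppp1r42 (0.93), Gmnn (0.93), Lrrc36 (0.93), Nphp4 (0.92), Ccdc121 (0.92), Ttc39a (0.92) and Ppp1r32 (0.92). Clic6 encodes a chloride channel family protein, Sox2 a transcription factor of the airway epithelium, and Nphp4 a protein of the ciliary transition zone. Against WT room air, 8 of the 10 fell in mutant smoke, where 10% of all genes fell, from 0.29 for Ttc39a (adjusted p = 0.0212) to 0.71 for Ccdc121 (adjusted p = 0.00139), while Gfra1 differed by -0.24 (adjusted p = 0.129). The mean of the 34 genes varied most within WT smoke (SD 0.15, against 0.06 in room air and 0.01 in the mutants), so these r values rest mostly on WT smoke. Gmnn, which encodes an inhibitor of DNA replication licensing, went the other way between groups. Within WT smoke it was highest in replicate 1 and lowest in replicate 2, as the cilium gene mean was. Within the mutants Gmnn lay at 3.02, 3.05, 2.97 and 2.97 and did not follow that mean (-0.19, -0.20, -0.20 and -0.18). In limma it rose by 0.81 ± 0.06 with smoke in WT (adjusted p = 3.3e-05) and by 0.59 against room air in mutant smoke (adjusted p = 0.000165).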
